A study of Sus scrofa with 14 samples.

Results

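Proteases and their inhibitors were examined in uterus from 14 pregnant sows, Iberian x Meishan F2 animals, at days 30 to 32 of gestation number 5. The set was defined by gene name on an Affymetrix porcine array: cathepsins, genes whose symbol starts with CST followed by a digit or letter, serpins, Kazal inhibitors of the SPINK family, matrix metalloproteinases (MMP), their tissue inhibitors (TIMP), the ADAM and ADAMTS metalloproteinases and the plasminogen activator genes. CST6 was left out. The rule found 57 genes among the 6765 genes that the platform annotation names with a single symbol, and each gene was represented by its probe set with the highest mean over the 14 arrays. PLAU and PLAT were found, while PLAUR was not analysed here.

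The sows were classed by phenotype as highly prolific (5 sows, named high 1 to high 5) or lowly prolific (9 sows, low 1 to low 9), and each sow gave 1 array. Breed, cross, tissue and stage were shared by both groups. Uterus was taken at slaughter and frozen, and the labels do not say which part of the wall was sampled or how near to a conceptus. Values are log2 levels per probe set, and a difference is the mean of the high minus the mean of the low prolificacy arrays, so that a difference of 1 is a doubling.

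Proteases of the uterus turn over the extracellular matrix, process secreted proteins and degrade proteins in lysosomes, and most of them are held in check by matching inhibitors. Cystatins block cysteine cathepsins, serpins trap serine proteases, and TIMPs occupy the active site of MMPs and of some ADAM enzymes. In the pig the placenta does not invade the uterine wall, and the trophoblast lies against an intact uterine epithelium. PAG6 is one of the pregnancy-associated glycoproteins, secretory products of trophoblast that belong to the aspartic protease family by sequence.

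The arrays carried transcripts of all the main tissue layers, in unequal amounts. Of 13 smooth muscle markers measured, 12 fell in high prolificacy, and the list mean ran from -3.54 to -0.04 over the high arrays and from 0.74 to 1.90 over the low arrays (log2, centred on each gene's mean). Of 15 epithelial markers 7 rose, with list means of 0.68 to 1.44 in high and -2.29 to 0.22 in low prolificacy. Neither list overlapped between the groups. High 1 kept the highest smooth muscle mean of the high arrays, and low 7 (-2.29) and low 9 (-2.07) had the lowest epithelial means. Of 12 stromal fibroblast markers 5 fell and 1 rose, of 11 endothelial markers 1 rose and 1 fell, and of 5 neutrophil markers 1 rose. Of 8 macrophage and dendritic cell, 10 T and NK cell, 10 trophoblast and fetal membrane and 4 blood markers 0 were called. In bulk tissue, fewer cells of a type and less RNA per cell cannot be told apart. The array medians lay between 5.72 and 5.84, and 22 of the 57 genes averaged under 5.72, where the files do not tell signal from background.

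SERPINB2, SPINK4, CTSD and ADAM28 rose in high prolificacy and CTSK fell, in limma with Benjamini-Hochberg adjustment over all 23999 probe sets tested at a threshold of 0.05. These 5 genes are 8.77% of the 57, beside 7.85% of all probe sets (3.50% higher and 4.35% lower) and 10.8% of the genes with a single symbol taken at their brightest probe set. The proportion of called genes was thus near the background. The median difference over the 57 genes was 0.13, beside 0.039 over all probe sets, and 35 differences were above 0, beside 56.7% of all. At an unadjusted p of 0.05 there were 13 genes of the 57, beside 21.1% of all probe sets. All high arrays lay above all low arrays for 1 gene, SERPINB2, where 0.904% of all probe sets did so, and all lay below for 0 genes, where 1.74% did so.

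**Figure D1:**
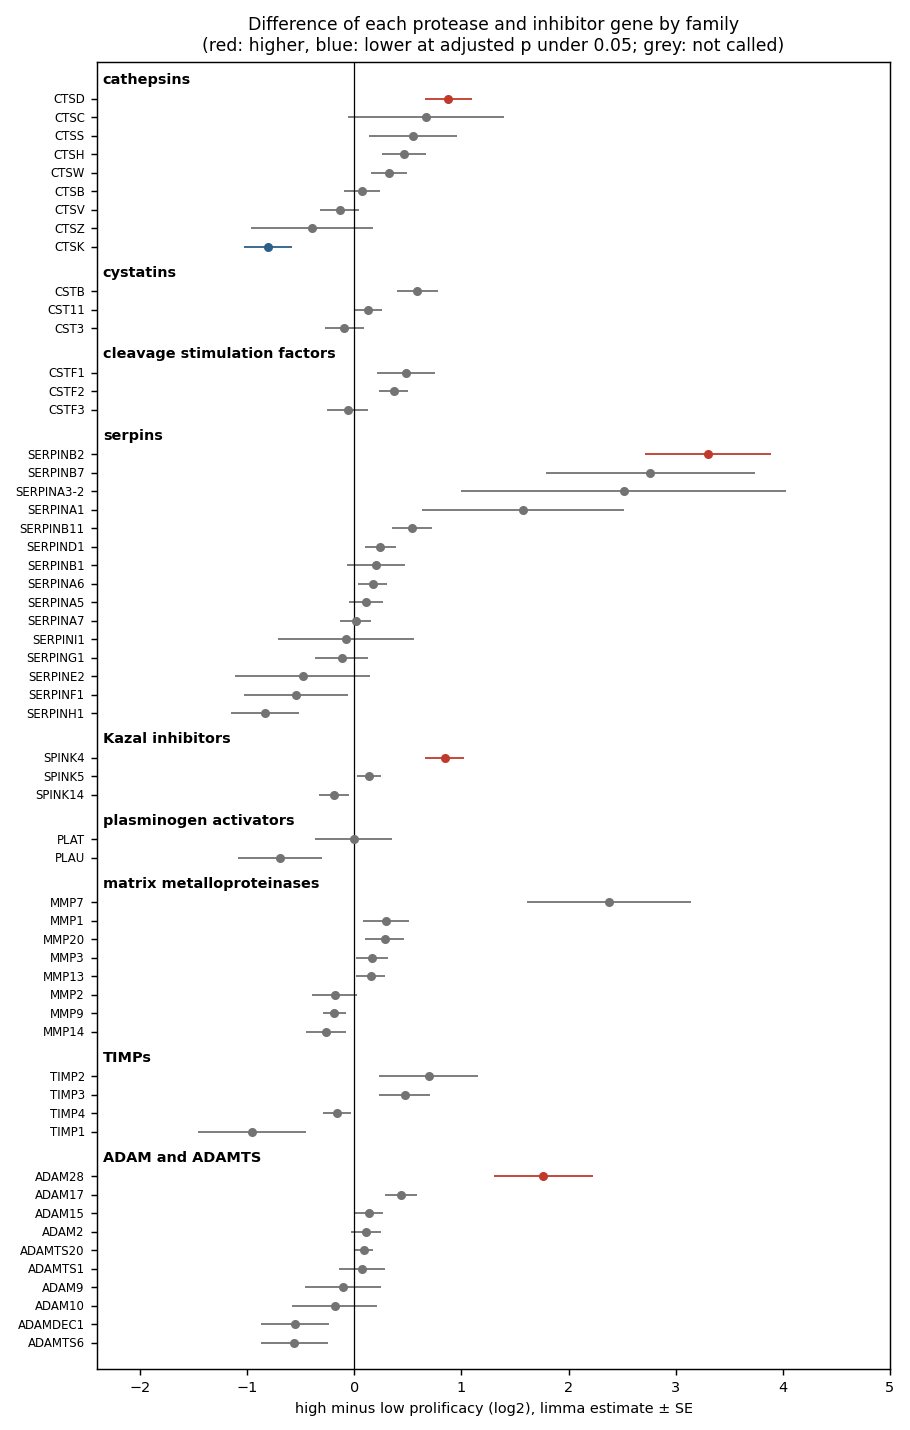
Difference of each of the 57 genes between high and low prolificacy (horizontal axis, log2; point, limma estimate; bar, SE; 5 high and 9 low arrays), grouped by family. SERPINB2, SPINK4, CTSD and ADAM28 are marked as higher and CTSK as lower at an adjusted p under 0.05, and SERPINB7, MMP7 and SERPINA3-2 have differences over 2 that were not called.

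Among the serpins, 1 of 15 rose and 0 fell, with a median difference of 0.17. SERPINB2, plasminogen activator inhibitor 2, blocks the urokinase and tissue plasminogen activators. Its level was 8.16 in high 1, 9.90 in high 2, 8.30 in high 3, 8.64 in high 4 and 8.73 in high 5. In low prolificacy it ran from 3.99 through a median of 5.09 to 7.09. Every high array lay above every low array, and the low arrays fell apart into 4 between 6.53 and 7.09 (low 2, low 4, low 5 and low 8) and 5 between 3.99 and 5.09. The group means were 8.75 ± 0.69 (SD, n = 5) and 5.44 ± 1.32 (SD, n = 9), a 9.88-fold rise (log2 difference 3.30 ± 0.59 SE, limma adjusted p = 0.0039). The low prolificacy mean and the 5 lowest arrays lay under 5.72, where the files do not tell signal from background. The size of the fold and the spread among those 5 arrays are therefore uncertain. The adjusted p stayed between 0.0028 and 0.017 when any 1 array was left out.

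SERPINB7 and SERPINB11, clade B serpins like SERPINB2, lie beside it in the gene order of the assembly Sscrofa11.1. SERPINB7 and SERPINB11 are direct neighbours, and 1 other gene stands between SERPINB2 and SERPINB7. SERPINB7 was at 8.46, 10.01, 10.50, 6.76 and 6.07 in high 1 to high 5 and between 3.37 and 8.08, with a median of 6.02, in low prolificacy. The groups overlapped, and the difference of 2.76 ± 0.97 (SE) was not called (limma adjusted p = 0.10). As for SERPINB2, low 3, low 6, low 7 and low 9 were low, at 3.87, 3.39, 3.37 and 4.08, and low 2, low 4, low 5 and low 8 at 6.88 to 8.08. The values of low 3, low 6, low 7 and low 9 lay under 5.72, where signal and background are not told apart. SERPINB11, at a dim mean of 2.95, differed by 0.54 ± 0.19 (SE, adjusted p = 0.099). SERPINB1, which inhibits neutrophil serine proteases, differed by 0.20 ± 0.27 (SE).

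Among the clade A serpins, SERPINA3-2 and SERPINA1 were spread over ranges of 9.20 and 7.75 between sows, and SERPINA5, SERPINA6 and SERPINA7 over 0.93, 0.94 and 0.82. SERPINA3-2, of the antichymotrypsin group and picked out after its values were seen, ran from 3.75 in low 3 to 12.96 in low 5. In high prolificacy it was at 11.46, 11.99, 8.86, 11.96 and 12.37. The high arrays lay within the range of the low arrays, and the difference of 2.51 ± 1.52 (SE) was not called (limma adjusted p = 0.39). SERPINA1, the antitrypsin that inhibits neutrophil elastase and that was also picked out after its values were seen, was at 12.31 in high 4 and between 5.29 and 5.89 in the other high arrays. Low prolificacy arrays lay between 4.56 and 7.17. High 4 also had the highest mean of the trophoblast and fetal membranes markers, 2.85, where the other arrays lay between -0.84 and 0.87, and the part of that tissue in the SERPINA1 level was not tested. SERPINA5, SERPINA6 and SERPINA7 averaged 3.61, 4.69 and 3.34 and differed by at most 0.17 at the probe sets used. The last 2 of them are carriers of steroid and thyroid hormones and no protease inhibitors. Another SERPINA5 probe set, at a mean of 3.40, differed by 0.53 ± 0.23 (SE) and was not called.

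Of the remaining serpins none was called. SERPINH1, a collagen chaperone of the endoplasmic reticulum, was at 8.74, 7.63, 7.82, 9.78 and 8.18 in the high arrays and between 8.29 and 9.72 in the low arrays, a difference of -0.83 ± 0.32 (SE, limma adjusted p = 0.13). Without high 4 its difference was -1.17 and it was called (limma adjusted p = 0.014). SERPINF1, pigment epithelium-derived factor, differed by -0.55 ± 0.49 (SE) and SERPINE2, the cell-surface thrombin and urokinase inhibitor protease nexin 1, by -0.48 ± 0.63 (SE). SERPING1, the C1 inhibitor of complement, averaged 10.73 ± 0.62 (SD, n = 5) and 10.84 ± 0.37 (SD, n = 9). SERPIND1, heparin cofactor II, and SERPINI1, neuroserpin, differed by 0.24 and -0.079.

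The plasminogen activators, the targets of SERPINB2 and SERPINE2, were not called. PLAU, urokinase, was at 6.57, 6.03, 7.06, 8.34 and 6.10 in high and between 6.68 and 8.27, with a median of 7.32, in low prolificacy. High 4 lay above every low array and high 1, high 2 and high 5 below every one, and the difference of -0.69 ± 0.39 (SE) had a limma adjusted p of 0.35. PLAT, the tissue activator, averaged 6.92 ± 0.84 (SD, n = 5) and 6.93 ± 0.61 (SD, n = 9), a difference of -0.0083 ± 0.36 (SE).

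Of the 3 Kazal inhibitors, SPINK4 rose. SPINK4, first known as the gut peptide PEC-60, was at 7.00, 7.43, 7.42, 7.91 and 7.36 in the high arrays and between 6.05 and 7.02, with a median of 6.54, in the low arrays. Low 5, at 7.02, lay just above high 1, and otherwise the groups did not overlap. It rose 1.79-fold (log2 difference 0.84 ± 0.18 SE, limma adjusted p = 0.012, between 0.006 and 0.037 when any 1 array was left out). A dimmer SPINK4 probe set, at a mean of 4.26, differed by 0.29 ± 0.15 (SE) and was not called. SPINK5 and SPINK14 averaged 2.99 and 3.10 and differed by 0.14 and -0.19.

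The cathepsins moved in both directions, with 1 of 9 genes higher, 1 lower and a median difference of 0.32. CTSD, the aspartic protease of lysosomes, was at 9.53, 9.40, 8.79, 10.03 and 9.13 in the high arrays. In the low arrays it lay between 8.00 and 9.32, with a median of 8.48. Only low 3, at 9.32, reached the high arrays, and CTSD rose 1.84-fold (log2 difference 0.88 ± 0.22 SE, limma adjusted p = 0.024). Leaving out high 2 or high 4 ended this call, and the adjusted p ran from 0.0065 to 0.064 over the 14 fits that left out 1 array. In a fit chosen after seeing the data, the call was also lost without low 7 and low 9 together (difference 0.80, limma adjusted p = 0.072).

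CTSK, the collagen-degrading cysteine cathepsin best known from osteoclasts, was at 8.73, 8.57, 9.20, 8.40 and 7.63 in high and between 8.91 and 10.0, with a median of 9.31, in low prolificacy. High 3 alone lay among the low arrays. CTSK fell by 0.81 on the log2 scale (SE 0.22, limma adjusted p = 0.037). The call was lost in 10 of the 14 fits that left out 1 array (limma adjusted p between 0.022 and 0.085) and held in 4, those lacking high 1, high 3, low 3 and low 8. CTSS, a cathepsin of antigen-presenting cells and the direct neighbour of CTSK in the gene order, differed by 0.55 ± 0.41 (SE, adjusted p = 0.51).

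The other cysteine cathepsins were not called. CTSB, a lysosomal and secreted cathepsin, averaged 11.81 ± 0.47 (SD, n = 5) and 11.74 ± 0.19 (SD, n = 9). The gene annotated CTSV, which the gene table also lists under the older name CTSL and which was picked out after its values were seen, differed by -0.14 ± 0.18 (SE). CTSH, an aminopeptidase, differed by 0.47 ± 0.21 (SE) and the lymphocyte cathepsin CTSW, dim at a mean of 5.02, by 0.32 ± 0.17 (SE). CTSC, which activates granule serine proteases, ran from 7.87 to 11.78 over all arrays and differed by 0.67 ± 0.73 (SE). CTSZ, a carboxypeptidase, was at 8.62, 6.19, 6.34, 10.28 and 7.38 in the high arrays, a spread that covered all low arrays (7.14 to 9.18).

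Of the cystatins, the inhibitors of these cathepsins, 0 of 3 were called. CSTB, the intracellular stefin B, was at 10.26, 10.25, 10.33, 10.72 and 10.55 in high and between 9.10 and 10.36 in low prolificacy, where only low 4 reached the high arrays. Its difference was 0.59 ± 0.19 (SE, limma adjusted p = 0.074). CST3, the secreted cystatin C, averaged 9.81 ± 0.28 (SD, n = 5) and 9.90 ± 0.37 (SD, n = 9), and its dimmer probe sets differed by 0.039 and 0.088. CST11 differed by 0.13. The rule also takes in CSTF1, CSTF2 and CSTF3, subunits of the cleavage stimulation factor of messenger RNA 3′ ends, which are neither proteases nor inhibitors. They differed by 0.48, 0.37 and -0.063, and none was called.

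Among the matrix metalloproteinases 0 of 8 were called, although MMP7 had one of the widest differences of the set. MMP7, matrilysin, an epithelial enzyme with broad matrix substrates, was at 8.50, 10.23, 11.70, 8.55 and 9.49 in the high arrays. In the low arrays it ran from 4.68 in low 7 and 5.37 in low 9 through a median of 7.27 to 9.53 in low 6. The values of low 7 and low 9 lay under 5.72, where signal and background are not told apart. The difference was 2.38 ± 0.76 (SE, limma adjusted p = 0.072). It was 2.65 and called without low 6 (limma adjusted p = 0.048). Low 7 and low 9 were also the arrays with the lowest epithelial marker means. Without them the MMP7 difference was 1.72 (limma adjusted p = 0.15), and with the epithelial list mean as a covariate it was 0.11. Both fits were chosen after seeing the data. The epithelial list mean did not overlap between the groups, and with it limma called only 2 of all 23999 probe sets. The part of epithelium in the MMP7 difference was not tested.

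MMP2, the gelatinase of stromal cells, averaged 9.53 ± 0.20 (SD, n = 5) and 9.72 ± 0.46 (SD, n = 9), a difference of -0.19 ± 0.21 (SE). MMP14, the membrane-bound activator of MMP2, differed by -0.26 ± 0.19 (SE). MMP9, the gelatinase of leukocytes, dim at a mean of 4.90, differed by -0.19 ± 0.10 (SE). MMP1, MMP3, MMP13 and MMP20, which with MMP7 form a run of near neighbours in the gene order, were dim, with means from 2.70 to 3.43. Their differences lay between 0.15 and 0.29.

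Of the TIMPs 0 of 4 were called. TIMP1, the inducible TIMP, was at 12.43, 9.40, 8.35, 11.49 and 9.65 in the high arrays and between 10.75 and 11.69 in the low arrays. High 1 and high 4 lay within or above the low arrays and the other high arrays below all of them. The SD was 1.66 (n = 5) in high against 0.28 (n = 9) in low prolificacy, and the difference of -0.95 ± 0.50 (SE) had a limma adjusted p of 0.30. Without high 1 the difference was -1.50 and was called (adjusted p = 0.028). High 1 and high 4 were also the high arrays with the most PAG6, as described below.

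TIMP2, which inhibits MMP2 and also takes part in its activation with MMP14, differed by 0.69 ± 0.46 (SE, limma adjusted p = 0.44). Low 3, low 7, low 8 and low 9 stood at 11.63, 11.57, 11.63 and 10.87, and every other array at 12.85 or more. The dimmer TIMP2 probe set, at a mean of 11.34, differed by -0.53 ± 0.21 (SE, adjusted p = 0.15), so the probe sets disagreed in sign. TIMP3, the matrix-bound TIMP, differed by 0.47 ± 0.24 (SE), and TIMP4 was dim at 3.52.

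Of the 10 ADAM and ADAMTS genes, ADAM28 rose and 0 fell, with a median difference of 0.080. ADAM28, a metalloproteinase of epithelial cells and lymphocytes, was at 7.53, 7.46, 8.37, 7.67 and 6.97 in high and between 3.86 and 7.05, with a median of 6.19, in low prolificacy. Low 8, at 7.05, alone reached the high arrays, and low 7 (3.86) and low 9 (4.62) were lowest, as for MMP7. The rise was 3.40-fold (log2 difference 1.76 ± 0.46 SE, limma adjusted p = 0.029). Low 1 (5.44), low 7 and low 9 lay under 5.72, where signal and background are not told apart. The size of the fold is therefore uncertain. Of the 14 fits that left out 1 array, 5 ended the call: those without high 2, without high 3, without high 4, without low 1 and without low 6 (limma adjusted p between 0.02 and 0.10 over the 14). ADAMDEC1, its direct neighbour in the gene order, was dim at 3.55 and differed by -0.56 ± 0.32 (SE).

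ADAM17, the sheddase that releases tumor necrosis factor and epidermal growth factor ligands, differed by 0.44 ± 0.15 (SE, limma adjusted p = 0.091). It was called without high 1 (difference 0.55, limma adjusted p = 0.028). Dimmer ADAM17 probe sets differed by 0.46, 0.44 and -0.073 over all arrays, and none of them was called. ADAMTS1, a secreted protease of proteoglycans that progesterone induces in the ovary, averaged 11.15 ± 0.48 (SD, n = 5) and 11.08 ± 0.35 (SD, n = 9). ADAMTS6, dim at a mean of 5.41, differed by -0.56 ± 0.31 (SE). ADAM9, ADAM10, ADAM15, ADAM2 and ADAMTS20 differed by between -0.19 and 0.14.

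**Figure D2:**
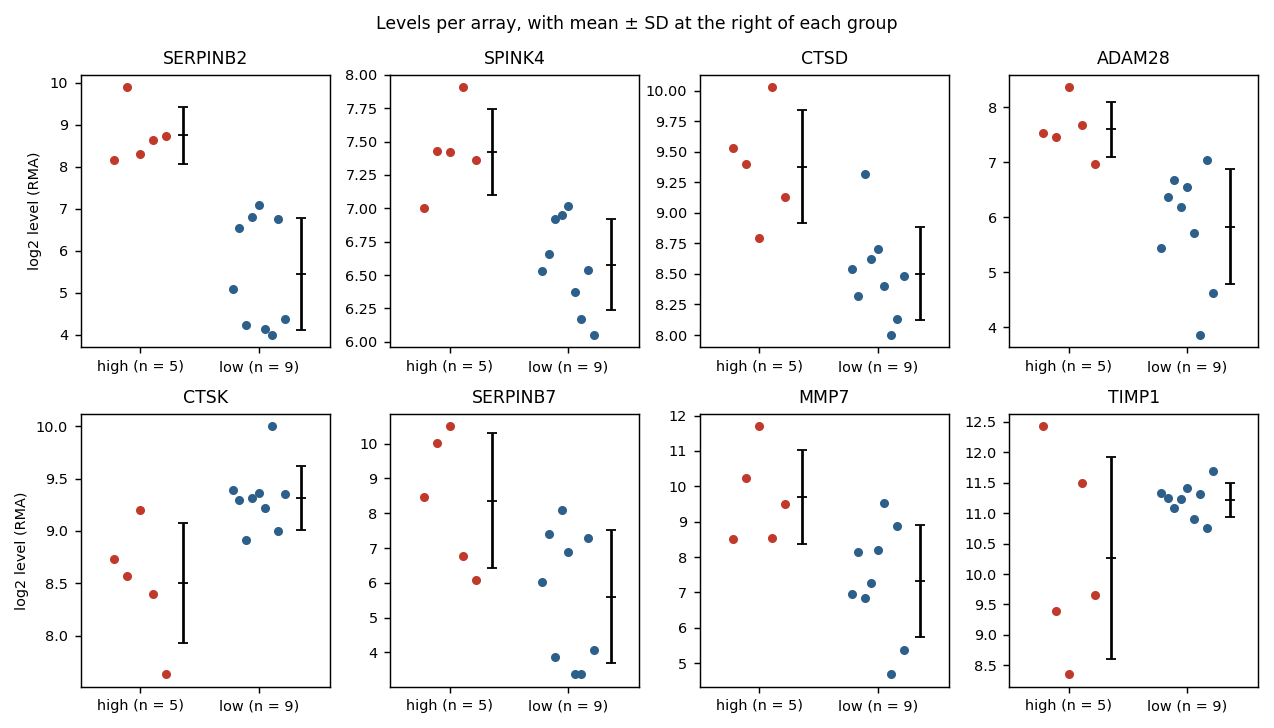
Levels per array (vertical axis, log2 RMA; each point 1 sow; bar, mean ± SD of 5 high or 9 low arrays) of the 5 called genes and of SERPINB7, MMP7 and TIMP1, which were not called. The groups are apart in SERPINB2, touch in SPINK4 and overlap in the others, and TIMP1 is spread over 8.35 to 12.43 in high but 10.75 to 11.69 in low prolificacy.

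The 5 called genes lay between the same groups in which the tissue markers differed. With the smooth muscle and epithelial list means as covariates the differences were 1.22 for SERPINB2, 1.23 for CTSD, -0.61 for CTSK, 0.16 for ADAM28 and 0.10 for SPINK4. Limma then called 0 of 57 genes and 0 of all probe sets (3 of the 57 at an unadjusted p of 0.05), and these list means account for 83.1% of the variance of the group label. With the PAG6 level as a covariate the 5 differences were 3.26, 0.82, -0.81, 1.75 and 0.80 and all were called.

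Other proteases and inhibitors were taken from a list of 107 genes, of which 62 were on the array. The list was drawn up by name with earlier results of these data known, so its share of called genes is no independent test. SPINT1, SPINT2 and ST14 of this list are also in the epithelial marker list. Of these, 7 rose and 5 fell, 19.4% of the list beside 7.85% of all probe sets and 10.8% of genes at their brightest probe set, with a median difference of 0.23. The membrane serine protease PRSS8 rose from 6.76 ± 1.02 (SD, n = 9) to 8.87 ± 0.51 (SD, n = 5), and SPINT1, an inhibitor of such enzymes, from 6.38 ± 0.79 to 8.46 ± 0.55 (limma adjusted p = 0.011 and 0.0040). WFDC2, a secreted protein with whey acidic protein domains, rose by 3.06 ± 0.59 (SE, limma adjusted p = 0.0059). The proprotein convertase PCSK7 rose by 0.87 ± 0.16 (SE, limma adjusted p = 0.0047). UPTI, a member of the list picked out after its values were seen, rose by 2.64 ± 0.68 (SE, limma adjusted p = 0.028). In PRSS8, SPINT1, WFDC2 and UPTI all high arrays lay above all low arrays, where 0.904% of all probe sets did so.

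The members of that list that fell included the matrix-bound serine protease inhibitor TFPI2, from 9.70 ± 0.35 (SD, n = 9) to 7.29 ± 1.45 (SD, n = 5, limma adjusted p = 0.0052). PCSK1N, an inhibitor of proprotein convertase 1, had a difference of -2.04 ± 0.38 (SE, limma adjusted p = 0.0054). WFDC1, a protein with a whey acidic protein domain, had a difference of -1.71 ± 0.48 (SE, limma adjusted p = 0.044). That of the aminopeptidase ENPEP was -2.09 ± 0.60 (SE, limma adjusted p = 0.047). The calls of WFDC1 and ENPEP were lost in 10 and 12 of the 14 fits that left out 1 array. SPINT1 and PRSS8 are known from epithelia, and SPINT1 is also in the epithelial marker list used here.

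The second question was how each gene varied with PAG6. PAG6 was at 10.74 in high 1, 3.86 in high 2, 4.33 in high 3, 11.43 in high 4 and 6.21 in high 5. In low prolificacy it ran from 3.60 through a median of 5.24 to 10.89 in low 4. Its difference between the groups, 1.06 ± 1.49 (SE), was not called (limma adjusted p = 0.77). High 1, high 4 and low 4 stood above a gap of 2.01, the widest, and the other 11 arrays lay between 3.60 and 8.74, so no correlation over all arrays is given. Of the other 9 markers of trophoblast and fetal membranes 3 rose with PAG6 within groups, GATA3, HAND1 and TFAP2C (slopes 0.55, 0.28 and 0.21, limma adjusted p = 0.00013, 0.019 and 0.041). AFP, IFNG, TTR, APOA1, CYP19A1 and GATA2 did not pass (slopes 0.41, 0.20, 0.16, 0.11, 0.0036 and -0.049).

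Markers of other cell types were fitted in the same way. Of 12 stromal fibroblast markers 1 rose, THY1 (slope 0.44 ± 0.071 SE, limma adjusted p = 0.0095), and 6 had a positive and 1 a negative slope at an unadjusted p of 0.05. Of the 66 markers in the other 7 lists 0 passed in limma, with 10 positive and 1 negative at an unadjusted p of 0.05. The positive ones were 4 of 13 smooth muscle, 3 of 11 endothelial, 2 of 8 macrophage and dendritic cell and 1 of 4 blood markers. In the macrophage and dendritic cell list AIF1 had a slope of 0.30 ± 0.065 (SE, limma adjusted p = 0.058) and CD86 one of -0.022. THY1, AIF1 and CD86 were picked out after their values were seen. The part of stromal, smooth muscle, endothelial and macrophage cells in the slopes given next was not tested.

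The relation was fitted as a slope, the change in a gene's log2 level per log2 unit of PAG6, with the prolificacy group as a term. In limma over 23996 probe sets, 1 of the 57 genes had a slope past an adjusted p of 0.05, beside 0.617% of all probe sets (0.546% positive and 0.0708% negative). At an unadjusted p of 0.05 there were 13 genes, 11 with a positive and 2 with a negative slope. Beside them stood 13.3% of all probe sets (5.66% positive and 7.61% negative) and 15.2% of genes at their brightest probe set. Of these 13, 6 were serpins, 3 cathepsins, 2 TIMPs, 1 a cleavage stimulation factor and 1 an ADAM. The median slope was 0.027 over the 57 genes and -0.0054 over all probe sets, and 38 slopes were above 0, beside 44.1% of all.

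SERPINI1, neuroserpin, an inhibitor of tissue plasminogen activator known from neurons, was the gene called, at a dim mean of 4.59. Its level was 6.55, 3.91, 3.54, 5.47 and 3.21 in high 1 to high 5. In the low arrays it was lowest in low 3 and low 9 (3.05 each) and low 7 (3.75) and highest in low 1 (5.84) and low 5 (6.05). Its slope was 0.34 ± 0.070 (SE, limma adjusted p = 0.047). Among the 11 arrays below the gap the slope was 0.40 ± 0.12 (SE) and among the 9 low arrays 0.34. The call was lost in 13 of the 14 fits that left out 1 array, all but the one without low 2 (adjusted p between 0.027 and 0.11, slope between 0.30 and 0.39).

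SERPINE2 had a slope of 0.33 ± 0.072 (SE, limma adjusted p = 0.059) and was called without low 6 or without low 7. Its level was 8.24 and 8.13 in high 1 and high 4 and between 5.21 and 6.05 in the other high arrays, and low 4 and low 5, rich in PAG6, were at 8.13 and 8.32. Low 7, however, reached 8.09 at a PAG6 level of 5.24. With the other PAG6 probe sets in place of the one used, SERPINE2 was called and SERPINI1 was not. SERPINF1 had a slope of 0.24 ± 0.060 (SE, adjusted p = 0.11), which was 0.15 among the 11 arrays.

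CTSC had a slope of 0.33 ± 0.098 (SE) that did not pass (limma adjusted p = 0.17). Its other 3 probe sets had slopes of 0.35, 0.40 and 0.36. CTSC was at 11.28 and 11.78 in high 1 and high 4 and at 11.75, 10.93 and 10.74 in low 5, low 1 and low 4, while low 6, at a PAG6 level of 8.03, had 8.02. The slope was 0.30 ± 0.20 (SE) among the 11 arrays. CTSZ and CTSB had slopes of 0.22 and 0.066 over all arrays, which became 0.0070 and 2.1e-05 without the 3 arrays richest in PAG6. In both genes high 4 was the highest array of the 14.

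TIMP1 and TIMP2 had slopes of 0.21 ± 0.071 and 0.18 ± 0.068 (SE, limma adjusted p = 0.22 and 0.27). Among the 11 arrays that of TIMP1 was 0.033 and that of TIMP2 0.41 ± 0.11 (SE). Both MMP2 and MMP14, with slopes of 0.027 and 0.023, and the plasminogen activators PLAU and PLAT, with slopes of 0.12 and 0.090, were not called. SERPINH1 had a slope of 0.13 over all arrays and 0.021 among the 11. SERPINA1 had a slope of 0.36 ± 0.14 (SE, adjusted p = 0.29).

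The steepest decrease with PAG6 among genes at an unadjusted p of 0.05 was that of SERPINB1, with a slope of -0.13 ± 0.034 (SE, limma adjusted p = 0.12). It stood at 7.64 and 7.67 in high 1 and high 4, 7.73 in low 4, 9.17 in high 2 and 8.91 in low 3, and its slope was -0.14 among the 11 arrays. Dim SERPINB1 probe sets, at means of 4.15 and 3.51, had slopes of -0.0074 and 0.011 and did not show the decrease. ADAM17 had a slope of -0.051 ± 0.023 (SE), and -0.0025 among the 11 arrays. Dimmer ADAM17 probe sets had slopes of -0.089, 0.038 and -0.0091 over all arrays. CSTF1, SERPINB11, MMP3, CST3, ADAM15 and TIMP4 had slopes between -0.077 and -0.019 that did not pass. The genes that differed between the prolificacy groups had slopes of 0.043 (SERPINB2), 0.039 (SPINK4), 0.059 (CTSD), 0.012 (ADAM28) and -0.00076 (CTSK), and none was called.

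**Figure D3:**
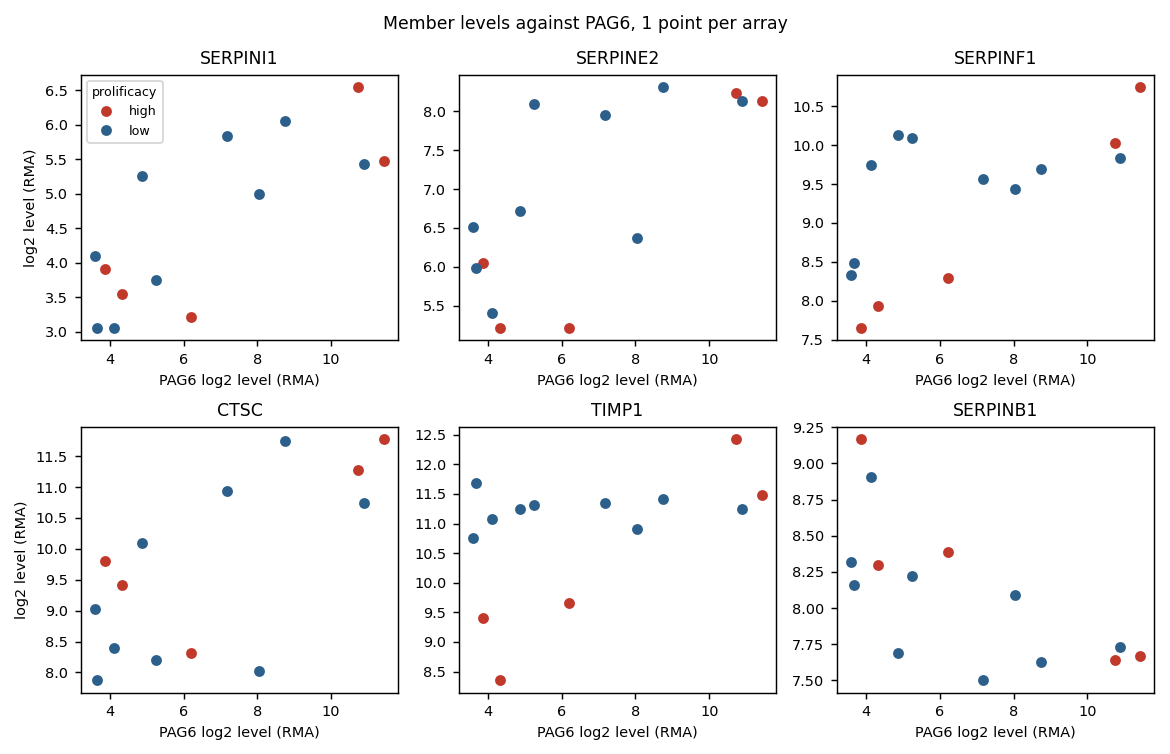
Levels of 6 genes (vertical axis, log2 RMA) against PAG6 (horizontal axis, log2 RMA), 1 point per sow, high prolificacy in red (n = 5) and low in blue (n = 9). In SERPINI1, SERPINE2, SERPINF1, CTSC and TIMP1 the PAG6-rich arrays high 1 and high 4 lie above the other high arrays, TIMP1 stays between 10.75 and 11.69 in the low arrays, and SERPINB1 is at 7.64 to 7.73 in the 3 arrays with PAG6 of 10.74 or more.

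Without the 3 arrays richest in PAG6, 0 of the 57 slopes passed an adjusted p of 0.05 in limma, beside 0.133% of all probe sets, and 4 passed an unadjusted p of 0.05 (TIMP2, SERPINI1, CSTF2 and TIMP3), beside 6.37%. Of the 57 genes, 42 kept the sign of their slope. In the 9 low arrays alone 0 passed the adjusted threshold, beside 0.213%, and 9 passed the unadjusted one, beside 2650 of the 23996 probe sets. In the list of 62 other proteases and inhibitors 1 gene was called for its slope, the endocytic receptor LRP2 (0.41 ± 0.080 SE, limma adjusted p = 0.033), picked out after its value was seen. WFDC1 had a slope of 0.26 ± 0.054 (SE, adjusted p = 0.055).

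**Figure D4:**
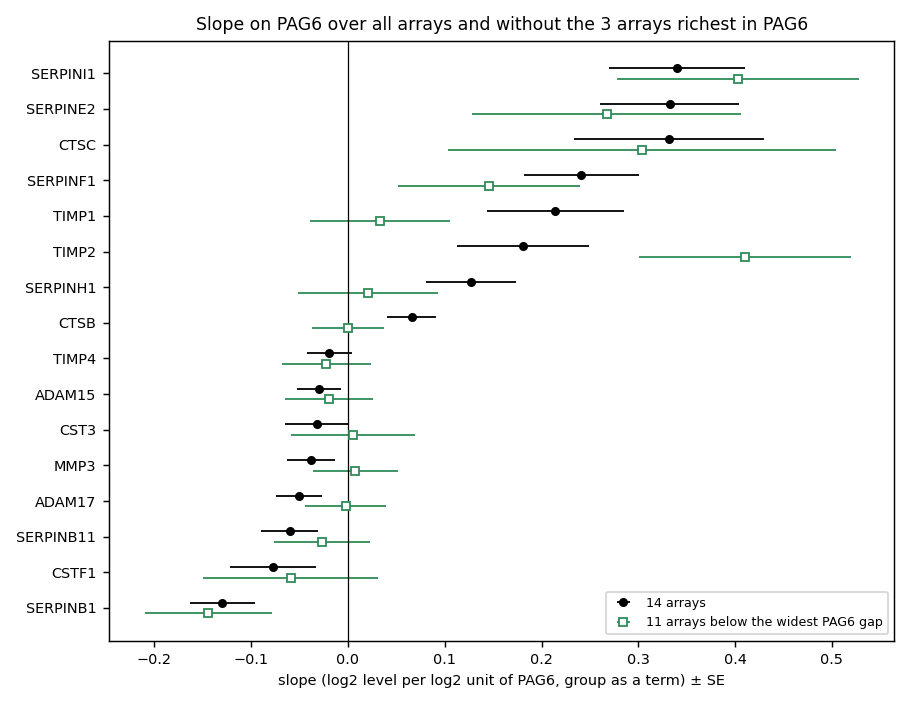
Slopes on PAG6 (horizontal axis, log2 level per log2 unit of PAG6, group as a term; bar, SE) over all 14 arrays and over the 11 arrays below the widest PAG6 gap, for the 8 positive and 8 negative slopes of smallest p. SERPINI1 keeps its slope (0.34 and 0.40), TIMP1 goes from 0.21 to 0.033, CTSB to 2.1e-05, and TIMP2 from 0.18 to 0.41.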

How the data were processed

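Levels of 24123 probe sets were deposited by the authors on the log2 scale. Per the submitters' processing notes the summary method was RMA, whose version and options the sources used here do not state. RMA equalises intensity distributions, and the number of arrays limits precision. There were no detection calls. After 124 control probe sets were left out, 23999 were tested: 10069 had 1 symbol in the platform annotation, 198 several and 13732 none. All 57 genes were found by gene number in the Sscrofa11.1 gene table, with 0 symbols changed. A single probe set with several symbols matching the rule was left out. Arrays were fitted with limma 3.58.1 in R 4.3.3 (lmFit, eBayes, two-sided, Benjamini-Hochberg), as high minus low and as a slope on PAG6 with group as a term, and the procedure was tested on simulated data. No p was adjusted over the gene set alone.

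Named genes were the 12 members of smallest p in each direction, the brightest of each family, the 8 of smallest p for each sign of slope, a fixed list of well-known genes, and 4 other proteases in each direction. Members, lists and rules were chosen with earlier results of these data known. Alternatives covered normalization, filtering, weights, probe sets, covariates, a replicate block and leaving out arrays. Residual degrees of freedom were 12 and 11 in the main fits and fewer with a replicate block. No 2 arrays were identical (highest correlation 0.983).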

Additional observations from a re-analysis of the deposited data

Results flagged for a closer look

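A level was singled out when its gap to the nearest other array of its group was wide for that group's range (Dixon's test). Of 132 groups tested, 17 had such an array, where chance gives about 1 in 20 groups. Low 3 held 6 of the 17: CST3 at 10.77, CSTF1 at 8.80 and CTSW at 5.50 were above the other low arrays, and CSTF3 at 5.44, ENPEP at 3.80 and TFPI2 at 8.86 below them. High 4 held 3, SERPINA1 at 12.31, SERPIND1 at 5.76 and MMP1 at 4.03, all above the other high arrays. High 5 held 3 as well, CSTF1 at 9.27 and SPINK5 at 3.48 above and CTSV at 9.26 below the others.

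The other flags were single. CTSK was at 10.0 in low 7 and MMP20 at 3.30 in low 1, above the remaining low arrays. MMP14 was at 5.77 in low 8, below them. In high prolificacy, PCSK7 was at 6.74 in high 1 and SERPINA3-2 at 8.86 in high 3, each below the other high arrays.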

How the results depend on the processing

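The count of 5 called genes was 9 with array weights, 9 at an adjusted p of 0.10, 8 with PAG6 as a covariate, 0 with the smooth muscle and epithelial covariates, 0 with a replicate block and, in alternatives chosen after seeing the data, 3 without low 7 and low 9 and 0 with either tissue covariate alone. It lay between 2 (without high 2) and 8 (without high 1) when 1 array was left out. SERPINB2 and SPINK4 were called in each of these 14 fits. The 1 called slope became 0 with the 12000 brightest probe sets (SERPINI1 is not among them), cyclic loess, no group term, the 9 low arrays, the 11 arrays below the gap, the 2 tissue covariates, a replicate block, without the 2 arrays farthest from the median PAG6 (high 4 and low 4) and, chosen after seeing the data, those 2 named directly. It was 2 at an adjusted p of 0.10, 2 with the trophoblast list mean (SERPINA1 and SERPINF1) and 2 with another PAG6 probe set. When 1 array was left out it lay between 0 and 1. It stayed 1 with array weights, with the mean of a gene's probe sets and with the third PAG6 probe set, but the gene was then SERPINE2. SERPINI1 lost its call in 26 of 30 alternatives. With the 2 tissue covariates the differences of PCSK1N, TFPI2 and WFDC1 reversed to 0.57, 0.41 and 0.22, and with the smooth muscle one alone to 0.54, 0.42 and 0.20, none of them called. The causes were not tested.

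The labels do not say whether equal replicate numbers pair the sows. Correlations of same-numbered deviations were 0.15, 0.14, -0.066, 0.42 and -0.25. Of 5 high arrays 1, high 4, was most like the low array of its own number. So few correlations cannot settle whether sows were paired. The block left 35 of all probe sets called. Dim signal limits 22 of the 57 genes.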

Other observations

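Some genes of the set varied with array rather than with group. CSTF1 was at 9.27 in high 5 and 8.80 in low 3 and at 8.02 or less elsewhere, and CSTF3 was lowest in the same arrays, at 5.90 and 5.44. ADAM10, dim at a mean of 5.62, was also lowest there, at 4.02 and 4.43. For 6 porcine control transcripts, the signal at the 3-prime end less that at the 5-prime end averaged -0.55 in high 5 and -0.65 in low 3, beside a range of -0.73 (low 6) to -0.055 (low 1) over all arrays, and its part in these levels was not tested.

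SERPINA3-2, SERPINB2, SERPINB7 and TIMP2 had low values in several of the same low prolificacy arrays, a pattern picked out after the values were seen. In low 3, low 7 and low 9 SERPINA3-2 was at 3.75, 5.49 and 4.59, SERPINB2 at 4.24, 3.99 and 4.37, SERPINB7 at 3.87, 3.37 and 4.08, and TIMP2 at 11.63, 11.57 and 10.87. All of these but the TIMP2 values lay under 5.72, where signal and background are not told apart. Low 1 and low 5 had SERPINA3-2 at 12.50 and 12.96. The epithelial list means of low 3, low 7 and low 9 were -0.16, -2.29 and -2.07, so low 3 was not among the arrays with the lowest means. Low 6 was as low in SERPINB2 (4.13) and SERPINB7 (3.39) but at 13.30 in TIMP2, and low 8, at 11.63 in TIMP2, had SERPINB2 at 6.75 and SERPINB7 at 7.29.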
